A study of Mus musculus with 912 samples.

Results

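CA1 pyramidal nuclei without FOS protein were compared between mice that stayed in the home cage (HC) and mice taken 1 h after a visit to an unfamiliar environment (NE). The nuclei were chosen by the authors' predicted cell type (CA1), a negative FOS stain in the sort, at least 4000 genes with a log2(TPM+1) above 1 and an Arc level not above 2.5 on that scale. The rule kept 40 of the 68 nuclei labelled CA1 and FOS−, out of 912 nuclei in the series. HC mice 3, 4 and 8 gave 12, 4 and 3 of them, and the 1 h mice 2, 4 and 10 gave 13, 5 and 3. The mouse numbered 4 in the HC group and the mouse numbered 4 in the 1 h group had different exposures and were taken as separate animals. A further HC mouse, number 5, had 1 labelled nucleus, which had 2685 genes and was left out.

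All animals were wild-type C57BL6 females. The 1 h mice spent 15 min in the NE and were then returned to the home cage for 1 h, and the HC mice had no exposure. Each batch date gave 1 HC mouse and 1 NE mouse of the same age, 8.7 weeks on the first date (HC mouse 3 and 1 h mouse 2), 9 weeks on the second (both mice numbered 4) and 8.85 weeks on the last (HC mouse 8 and 1 h mouse 10). Nuclei were sorted as NEUN+ and PROX1− into single wells after aggregates had been gated out, and each was made into its own Smart-seq2 library of polyadenylated RNA. The nuclei of the first batch date came from the CTIP2+ gate and those of the other dates from the CTIP2− gate, in both groups, so that date and gate cannot be told apart. No doublet caller was run. CA1 nuclei that stained for FOS at 1 h (FOS+) came from the same 3 NE mice (33 nuclei) and are given beside the FOS− values.

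FOS protein marks neurons that fired strongly in the recent past, because calcium entry and kinase signalling at the synapse lead to phosphorylation of the transcription factor CREB and to rapid transcription of Fos, Egr1, Nr4a1 and other immediate early genes. The transcripts appear within minutes and are short lived, while the proteins last for hours. A neuron sorted as FOS− after NE exposure has shared the animal's arousal, handling and hormones with its FOS+ neighbours. It was negative in the FOS stain, which does not show that it had not fired. The comparison with HC asks whether such FOS− neurons differ from those of animals that were never exposed. CA1 pyramidal cells carry the main output of the hippocampus and, as a population, fire in many environments.

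CREB binds the DNA before the start of many such genes, and 2 of these stretches are shown because the results return to both genes. The core pentamer of the CREB site, TGACG or its reverse complement CGTCA, is in capitals in the 200 bases before Fos (chr12:85473690-85473889, plus strand) and the 250 bases before Nr4a1 (chr15:101266596-101266845, plus strand), both from RefSeq on GRCm38.p6.
Fos: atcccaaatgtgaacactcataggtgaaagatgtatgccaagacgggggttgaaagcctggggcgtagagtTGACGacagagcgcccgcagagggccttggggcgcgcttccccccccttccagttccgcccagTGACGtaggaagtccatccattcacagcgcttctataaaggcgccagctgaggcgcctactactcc
Nr4a1: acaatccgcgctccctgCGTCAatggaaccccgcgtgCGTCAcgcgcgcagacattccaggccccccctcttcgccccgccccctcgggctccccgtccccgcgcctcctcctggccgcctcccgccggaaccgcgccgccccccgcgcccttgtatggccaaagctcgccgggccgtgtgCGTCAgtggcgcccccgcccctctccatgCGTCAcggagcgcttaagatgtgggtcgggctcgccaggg

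The Fos window held 2 matches and the Nr4a1 window 4. The Nr4a1 window precedes the RefSeq start and lies inside the span of a longer isoform. On either strand, the pentamer was found in the 250 bases before the start of 5347 of 27025 genes (19.8%). It was found before 9 of the 10 activity genes named here that had an entry outside chromosome 18. Genes of chromosome 18, among them Egr1, were left out of the counts of named genes but not of the 27025. Of the 10 genes leading higher at 1 h (below), 3 of the 9 with an entry held it, and of the 10 leading lower 4 of 9. A match describes the letters of the window and is not a measured binding site.

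The sums of counts per mouse were 15718425, 2637554 and 2246036 in HC mice 3, 4 and 8, and 15977695, 7055174 and 1863769 in 1 h mice 2, 4 and 10. A nucleus had 373895 to 2283247 counts in HC (median 1042478) and 372888 to 2182368 at 1 h (median 1266485). The groups overlapped in depth. The mean number of genes above 1 per nucleus was 7000.5 ± 800.4 in HC and 7002 ± 228 at 1 h (SD, n = 3 mice each, two-sided exact permutation p = 1.0). The mean total count per nucleus was 905979 ± 352617 and 1087115 ± 413579 (SD, n = 3, exact permutation p = 0.8). With 3 mice against 3 this test cannot go below p = 0.1.

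Between the groups, edgeR called 0 of 14507 genes at an adjusted p under 0.05 (0% of those tested), with a smallest adjusted p of 0.867. At an unadjusted p under 0.05 there were 730 genes, or 5.03% of those tested, 391 higher and 339 lower at 1 h. limma, run on the mean log2(TPM+1) of each mouse, called 0 as well, and 670 had an unadjusted p under 0.05. DESeq2, on the same sums, called 258 genes, 139 higher (0.958%) and 119 lower (0.82%) at 1 h. With the batch date as a replicate block DESeq2 called 443 genes (225 higher and 218 lower), and edgeR 0, with 523 at an unadjusted p under 0.05. The DESeq2 count and its balance also rested on single mice. Without HC mouse 3 it called 628 genes (488 higher and 140 lower), and without 1 h mouse 2 it called 532 (135 higher and 397 lower). The edgeR fit also called 0 genes between FOS+ and FOS− nuclei at 1 h (629 at an unadjusted p under 0.05), where the log2 fold change of Fos was 10.6. These FOS+ and FOS− sums come from the same 3 NE mice, and the fit does not pair them. Between FOS+ and HC nuclei the same fit called 0 as well (696). A count of 0 from this fit therefore does not show that 2 groups are alike. The p-values measure the spread between the sums per mouse, FOS+ sums included, and some of these sums hold only 3 nuclei.

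**Figure D1:**
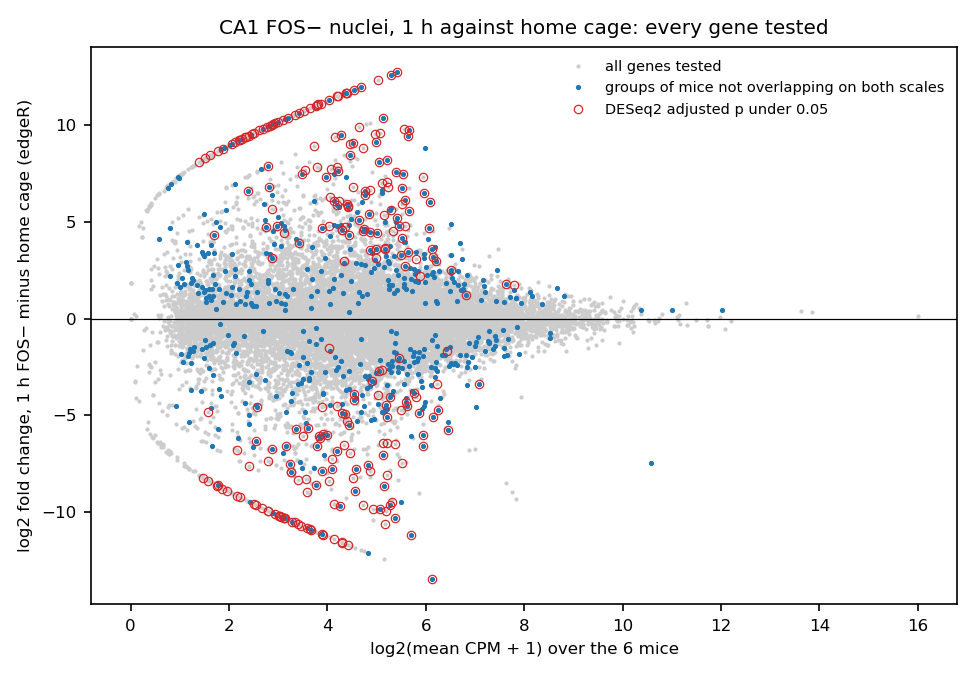
Log2 fold change from edgeR (1 h FOS− minus HC, y axis) against the log2 of the mean CPM plus 1 over the 6 mice (x axis) for each of the 14507 genes tested in CA1 FOS− nuclei. Blue points are genes whose 3 mice of one group lie above the 3 of the other on both scales, and red circles are the 258 genes called by DESeq2; the curved edges are genes at or near 0 counts in one group, where the fitted value depends on the prior count.

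A plainer count was also made. In 308 genes (2.12%) all 3 mice of the 1 h group lay above all 3 HC mice, both in CPM (counts scaled to the library size of the sum, with TMM factors) and in mean log2(TPM+1), and in 256 genes (1.76%) all lay below. Of the genes DESeq2 called, 73 of the 139 higher and 57 of the 119 lower separated the mice in this way. The remaining calls rested on groups that overlapped on at least 1 of these scales, or on genes without a log2(TPM+1) value. Such a value was at hand for 13722 of the 14507 genes, and a gene without it could not count as separated.

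Mice of the same group differed from each other about as much as mice of different groups. The share of genes more than 4-fold apart between the sums of 2 mice was 36.3% to 39.7% within HC and 32.2% to 36.7% within the 1 h group. Between an HC and a 1 h mouse it was 24.6% to 38.4% on the same batch date and 32.5% to 39.1% on different dates. A sum of few nuclei often rested on 1 of them. Among genes with a mean of 10 CPM or more, the nucleus with most counts held a median of 47.3%, 84.7% and 83.3% of a gene's sum in HC mice 3, 4 and 8, and 51.4%, 69.8% and 85.7% in 1 h mice 2, 4 and 10.

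edgeR called none of the immediate early genes in either direction in FOS− nuclei after NE exposure (0 of 18 tested), while DESeq2 called 1 as higher (Fosl2) and 2 as lower (Fos and Egr3). Fos, which encodes a subunit of the AP-1 transcription factor (chromosome 12 of GRCm38, 85473890 to 85477273), had 0.393, 35.3 and 0 CPM in HC mice 3, 4 and 8 and 0.121, 0 and 0 CPM in 1 h mice 2, 4 and 10. Its HC level came almost wholly from mouse 4, where 1 nucleus held 98.9% of the Fos counts, and the groups overlapped at 0. Fos was counted in 5 of 19 HC nuclei and 2 of 21 nuclei at 1 h. In all, 98 counts in HC stood against 2 at 1 h, a ratio of pooled rates of 61.5 (exact 95% interval 16.6 to 514.7, which covers counting error only). The edgeR test did not call Fos (adjusted p = 0.94), while DESeq2 did (adjusted p = 0.0474). Fosb, its close relative, was at 0 in all 6 mice. In FOS+ nuclei of the 3 NE mice Fos stood at 133, 165 and 50.2 CPM.

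Egr1, a zinc finger factor induced by synaptic input, had 168, 341 and 23.6 CPM in the HC mice and 93.9, 0.289 and 1.06 CPM in the 1 h mice. Mouse 2 of the 1 h group lay within the HC range, and the other 1 h mice lay below it. The log2 fold change was −2.47 (SE 1.76, edgeR adjusted p = 1). Egr1 exceeded a log2(TPM+1) of 1 in 12 of 19 HC nuclei and 10 of 21 nuclei at 1 h, against 28 of 33 FOS+ nuclei. The FOS+ sums held 573, 648 and 154 CPM.

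Nr4a1, an orphan nuclear receptor (chromosome 15, 101254269 to 101274795), had 11.5, 53.7 and 0.422 CPM in HC and 14.8, 0.144 and 0.529 CPM at 1 h. The groups overlapped, with a log2 fold change of −2.04 (SE 1.78, edgeR adjusted p = 1). Junb, the AP-1 partner of Fos, had 83.1, 296 and 0 CPM in HC and 81.5, 0.144 and 32.3 CPM at 1 h. Both groups of Junb spanned nearly the whole range from 0 or near 0 to over 80 CPM. Its exons share bases with Prdx2, and the reads carry no strand, so the 2 genes may exchange some counts. For the related receptors, Nr4a2 had 2.62, 86.2 and 34.6 CPM in HC and 35.4, 0.722 and 13.8 CPM at 1 h. Nr4a3 had 67.8, 94.3 and 1.69 CPM in HC and 52.2, 24.8 and 36.0 CPM at 1 h.

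The genes that act downstream at the synapse showed no common direction. Homer1, a scaffold of metabotropic glutamate receptors, had 98.9, 118 and 185 CPM in HC and 161, 21.9 and 3.70 CPM at 1 h. Bdnf, the secreted neurotrophin (chromosome 2, 109674700 to 109727007), had 44.9, 0.383 and 12.7 CPM in HC and 78.6, 60.8 and 49.7 CPM at 1 h. All 3 mice of the 1 h group lay above the HC mice in CPM, but on the log2(TPM+1) scale the groups overlapped (1.78, 0.24 and 2.14 in HC, 1.93, 2.98 and 2.10 at 1 h). The log2 fold change of Bdnf was 1.69 (SE 1.08, edgeR adjusted p = 1), and FOS+ nuclei held 598, 753 and 560 CPM. Bdnf shares exon bases with the transcript Gm45346.

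Inhba, which encodes the activin A subunit, had 1.31, 0 and 2.11 CPM in HC and 4.10, 0 and 65.6 CPM at 1 h, where mouse 10 alone was high (log2 fold change 4.32 ± 2.18, SE, edgeR adjusted p = 0.954). Npas4, a factor that responds to calcium entry alone, had at most 3.86 CPM in any FOS− mouse, and it was counted in 4 of 19 HC nuclei and 3 of 21 nuclei at 1 h. Arc was held low by the rule itself and is no result here. Among the nuclei kept, the highest Arc level was 1.19 in HC and 1.45 at 1 h, and among those left out the lowest was 3.24 and 2.65.

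**Figure D2:**
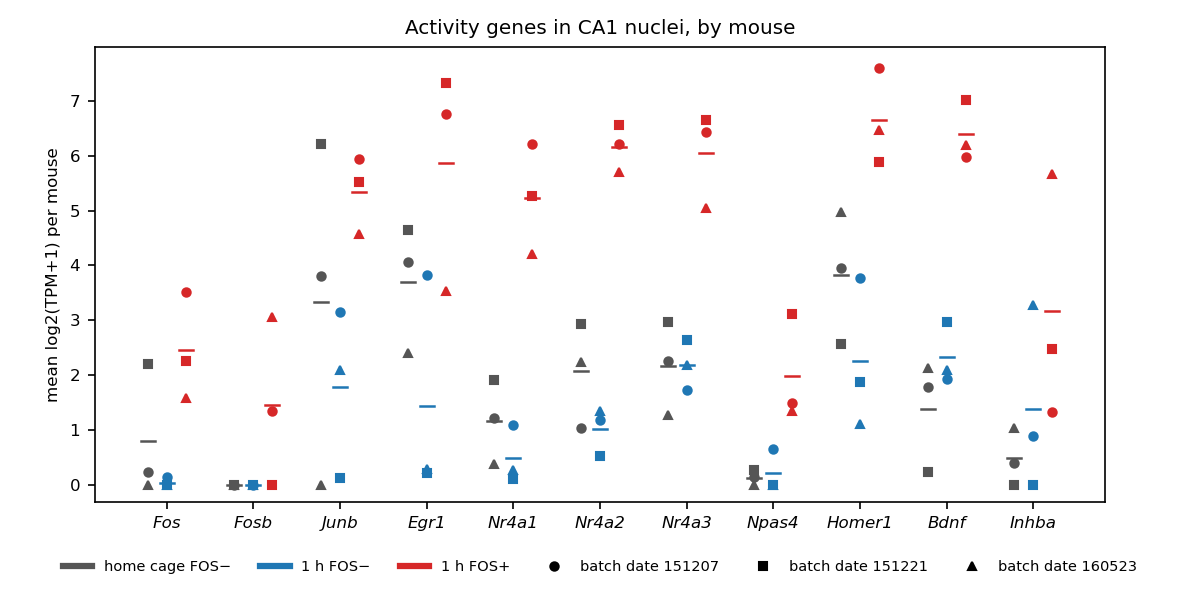
Mean log2(TPM+1) per mouse (y axis) of 11 activity genes (x axis) in CA1 nuclei of HC FOS− (grey), 1 h FOS− (blue) and 1 h FOS+ (red), with the batch date as the marker shape and the mean of the 3 mice as a bar. The FOS− groups overlap or meet at 0 in most of the genes, for example Nr4a1 (0.39 to 1.92 in HC, 0.11 to 1.10 at 1 h), while every FOS+ mouse lies above every FOS− mouse in Nr4a1, Nr4a2, Nr4a3, Homer1 and Bdnf.

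Over the whole list of 24 immediate early transcription factors, 18 passed the filter for low counts. Their median log2 fold change was −1.38, beside −0.0008 over all genes tested, with 14 below and 4 above 0. Setting the 2 members that were at 0 in one group to their bound gave −1.35. edgeR called 0 of the 18 at an adjusted p under 0.05, and 3 had an unadjusted p under 0.05. DESeq2 called the same 3, 1 higher and 2 lower, beside 0.958% higher and 0.82% lower over all genes tested. They were Fos, Egr3, which was counted only in HC mouse 3 (11.8 CPM), and Fosl2, a further AP-1 subunit, which had 0.196, 1.15 and 0.422 CPM in HC and 0.12, 74.1 and 93.1 CPM at 1 h. In no member did all mice of one group lie apart from the other on both scales. Within the 3 batch dates, in order, the median of the list was −0.14, −1.45 and 0.00, so the dates differed widely. The mean log2(TPM+1) over the 24 genes was 0.85, 1.18 and 0.52 in the HC mice and 0.70, 0.47 and 0.64 in the 1 h mice, against 2.10 to 2.56 in the FOS+ sums of the same NE mice.

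Of 33 activity-induced effectors, 31 were tested, with a median of −0.17, 14 above and 17 below 0. Dusp1, a phosphatase that turns off MAP kinases and is also induced by glucocorticoids, had 10.5, 47.1 and 0 CPM in HC and 0, 0.144 and 0 CPM at 1 h. Gadd45b, a stress and DNA repair gene, went the other way, with 1 count in HC (mouse 3) and 37.2, 0 and 36.0 CPM at 1 h. In both genes a mouse of the higher group was at 0, so the groups overlapped. DESeq2 called each of them (adjusted p = 0.0090 and 0.0189), and edgeR neither. Egr3, Fosl2, Dusp1 and Gadd45b were picked for this account once their values were known.

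Genes that respond to the animal's state were examined as well, since every NE mouse had been handled and exposed. Of 16 glucocorticoid-responsive genes 13 were tested, with a median log2 fold change of 0.55 (10 above and 3 below 0). Within the 3 dates, in order, the median was −0.10, 0.64 and 0.39. Of the 17 clock genes tested the median was −0.15, and of the 13 heat shock and chaperone genes −0.48, with dates on both sides of 0 for the latter (−0.92, 0.48 and −0.07). The clock list held 1 gene of 17 whose mice separated, beside 1.76% lower over all genes tested. This was Rora, an orphan nuclear receptor that activates Bmal1. It had 1.90, 74.4 and 86.1 CPM in HC and 0.422, 0.289 and 0 CPM at 1 h, and DESeq2 called it lower (adjusted p = 4.3e-05) while edgeR did not (adjusted p = 0.94). All Rora counts of HC mice 4 and 8 came from 1 nucleus each. The gene was counted in 8 of 19 HC nuclei and 6 of 21 nuclei at 1 h. Some exon bases of Rora are shared with Gm15511.

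The leading genes were taken by the smallest unadjusted p among those whose mice did not overlap and whose dates all went the same way, and none was an activity gene. Each gap between the groups is thus a condition of the choice. Wdr83, a WD repeat scaffold linked to MAP kinase signalling (chromosome 8, 85075035 to 85081306), was at 0 in all 3 HC mice and had 62.0, 55.7 and 132 CPM at 1 h. It was counted in 0 of 19 HC nuclei and 8 of 21 nuclei at 1 h, and with every nucleus thinned to 300000 counts in 0 and 7. A single nucleus held 33.9%, 99.7% and 81.9% of the Wdr83 counts in 1 h mice 2, 4 and 10. Against a floor of 3 counts over the group, the pooled level of Wdr83 was at least 442-fold higher at 1 h. Its edgeR adjusted p was 0.867, the smallest of the table, which it shared with Fzr1, and DESeq2 called it. The exons of Wdr83 share bases with those of Dhps and Wdr83os, so its counts are uncertain.

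Rhbdd3, a rhomboid family protein (chromosome 11, 5098926 to 5106093), had no count in HC and 26.5, 114 and 88.4 CPM at 1 h, from 10 of 21 nuclei. The pooled level was at least 371-fold higher. In FOS+ nuclei of the same mice it stood at 1.65, 0 and 1.46 CPM, so that it was near 0 in 2 of the 3 CA1 groups. Its neighbour Ewsr1 shares exon bases with it. Tyk2, a Janus kinase of cytokine receptors, had no count in HC and 31.6, 56.5 and 3.70 CPM at 1 h, at least 245-fold higher when pooled, again with an overlapping transcript (1700084C06Rik). In 1 h mice 2, 4 and 10, 54.7%, 84.1% and 100.0% of the Tyk2 counts came from a single nucleus.

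B4galnt4, which adds N-acetylgalactosamine to glycans (chromosome 7, 141061104 to 141072400), had 0.524, 0.767 and 0.844 CPM in HC and 29.5, 66.0 and 24.3 CPM at 1 h. All dates went the same way, and the gene was counted in 3 of 19 HC and 10 of 21 nuclei at 1 h. Its log2 fold change was 5.81 (SE 1.19, edgeR adjusted p = 0.94), and no annotated gene shares its exons. Stac2, an adaptor of L-type calcium channels, had 1 count in HC and 6.33, 14.9 and 14.3 CPM at 1 h, a pooled ratio of 187 (exact 95% interval 33.3 to 7430.2). In each of the 1 h mice nearly all Stac2 counts came from a single nucleus (98.1%, 100.0% and 100.0%).

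The others of the 10 leading genes higher at 1 h were Galnt3, an enzyme that starts mucin-type glycosylation, Zp3r, known from sperm, Vcpkmt, a lysine methyltransferase of the ATPase VCP, Ctu2, which thiolates transfer RNA, and Rabep2, an effector of endosomal Rab GTPases. Their 1 h levels lay between 1.06 CPM (Ctu2 in mouse 10) and 172 CPM (Ctu2 in mouse 4), and no HC mouse exceeded 0.422 CPM in any of them. Ctu2 shares exon bases with Piezo1 and Rabep2 with Atp2a1. Zp3r had no count in FOS+ nuclei either, while Vcpkmt had 14.9, 37.6 and 26.7 CPM there. Single nuclei of 1 h mice 2, 4 and 10 held 91.7%, 100.0% and 100.0% of the Zp3r counts. For Vcpkmt they held 94.9%, 100.0% and 100.0%, and for Galnt3 67.0%, 100.0% and 100.0%. The edgeR adjusted p was 0.94 for each of these 5 genes.

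Among the genes lower at 1 h, Fzr1, the activator of the anaphase-promoting ubiquitin ligase in cells that do not divide (chromosome 10, 81366222 to 81378516), had 79.6, 39.9 and 106 CPM in HC and 0.0603, 0.144 and 0 CPM at 1 h. The 1 h group held 2 counts in all, a pooled ratio of 985 (exact 95% interval 272 to 8144). It was counted in 7 of 19 HC and 2 of 21 nuclei at 1 h, and in HC mouse 4 in 1 nucleus only. It shares exon bases with Mfsd12. The FOS+ sums held 12.2, 12.1 and 30.9 CPM.

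Brpf1 and Ing5 encode subunits of the same MOZ/MORF histone acetyltransferase complexes. Brpf1 (chromosome 6, 113307137 to 113324860) had 65.0, 152 and 215 CPM in HC and 5.30, 3.75 and 7.41 CPM at 1 h, with a log2 fold change of −4.72 (SE 0.96, edgeR adjusted p = 0.94). It was counted in 15 of 19 HC and 13 of 21 nuclei at 1 h, but 1 nucleus held 71.9%, 99.2% and 87.4% of the counts in HC mice 3, 4 and 8. Its exons overlap Gm15492. Ing5 had 20.3, 18.8 and 37.1 CPM in HC and 0.241, 0.433 and 0 CPM at 1 h.

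Lemd3 and Ctdnep1 encode proteins of the nuclear envelope. Lemd3, which binds Smads at the inner membrane, had 60.7, 167 and 13.9 CPM in HC and 0, 0.144 and 0 CPM at 1 h, and was counted in 11 of 19 against 1 of 21 nuclei. Ctdnep1, the phosphatase of lipin, had 11.5, 22.2 and 4.22 CPM in HC and 0.121, 0.144 and 0 CPM at 1 h. It shares exon bases with Elp5. In FOS+ nuclei both genes were present, Lemd3 at 48.6, 101 and 9.72 CPM and Ctdnep1 at 22.7, 8.06 and 13.8 CPM.

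Ptp4a1, a tyrosine phosphatase, had 49.2, 95.4 and 57.4 CPM in HC and 1.15, 0.144 and 0 CPM at 1 h. Enpp2, the secreted enzyme autotaxin, which makes lysophosphatidic acid and is abundant in choroid plexus and oligodendrocytes, had 188, 195 and 127 CPM in HC and 3.37, 5.63 and 0 CPM at 1 h. In HC mice 4 and 8 all of the Enpp2 counts came from 1 nucleus each. The remaining leading genes were Pard6a, a cell polarity scaffold, Abhd14b, a hydrolase that had no count at 1 h and was at least 176-fold lower when pooled, and Olfm2, a secreted olfactomedin. Abhd14b shares exon bases with Abhd14a. A single nucleus held 99.0%, 100.0% and 98.6% of the Pard6a counts in HC mice 3, 4 and 8, and 99.2%, 100.0% and 96.9% of those of Abhd14b. Olfm2 was the one gene of these 10 that was also near 0 in FOS+ nuclei, at 0.029, 0.298 and 1.62 CPM.

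**Figure D3:**
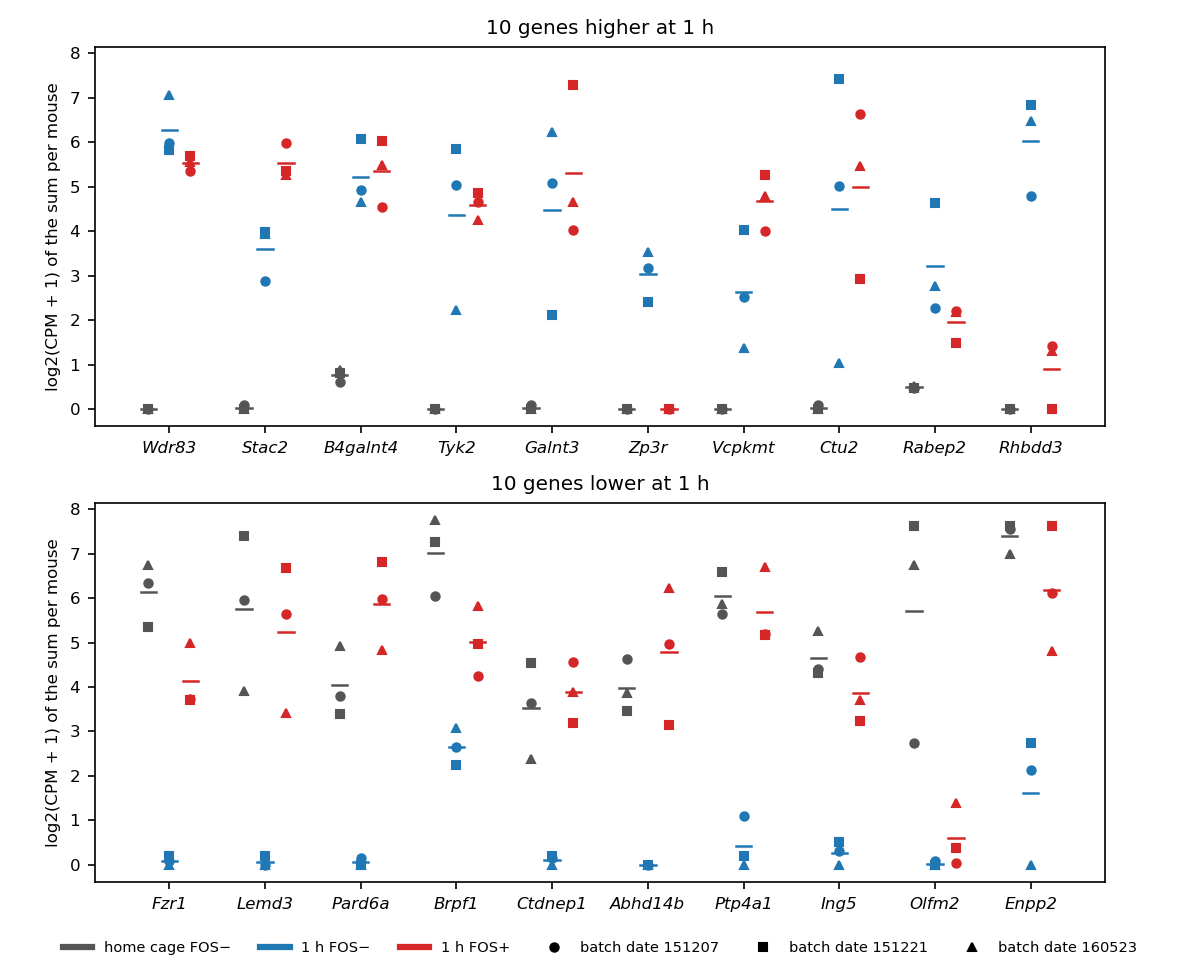
Log2 of CPM plus 1 per mouse (y axis) for the 10 genes leading higher (top) and the 10 leading lower (bottom) at 1 h, in HC FOS− (grey), 1 h FOS− (blue) and 1 h FOS+ nuclei (red), with the mean of 3 mice as a bar and the batch date as the marker. The genes were picked for groups that do not overlap, so the gap between grey and blue is a property of the choice. Red points, which the choice did not use, lie near blue in B4galnt4 and Tyk2 and near grey in Lemd3 and Ptp4a1.

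Ndufb4, a subunit of respiratory complex I, and Kcnd2, the Kv4.2 channel of the dendritic A-type current, are 2 genes that the study lists for this comparison in these nuclei, so their direction is not independent here. Ndufb4 (chromosome 16, 37647170 to 37654453) had 26.4, 49.8 and 31.7 CPM in HC and 2.29, 0 and 14.3 CPM at 1 h. The groups did not overlap, and the gene was counted in 16 of 19 HC and 6 of 21 nuclei at 1 h (15 and 6 after thinning). The log2 fold change was −2.72 (standard error 1.71), with an adjusted p of 1 from edgeR and 0.485 from DESeq2, and an unadjusted p of 0.0013 from limma that gave an adjusted p of 0.953. Ndufb4 has near copies elsewhere in the genome, between which short reads may be divided. In FOS+ nuclei it stood at 9.30, 5.67 and 7.13 CPM.

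Kcnd2 (chromosome 6, 21215503 to 21729805) had 380, 126 and 178 CPM in HC and 153, 15.2 and 144 CPM at 1 h. In CPM the groups overlapped, since 1 h mice 2 and 10 lay above HC mouse 4, but in mean log2(TPM+1) they did not (6.34, 4.07 and 5.58 in HC, 2.23, 1.30 and 2.22 at 1 h). It was counted in 18 of 19 HC and 13 of 21 nuclei at 1 h, and above a log2(TPM+1) of 1 in 18 and 9. The log2 fold change of the sums was −1.14 (SE 0.88, edgeR adjusted p = 1), and limma gave an unadjusted p of 0.0012 with an adjusted p of 0.953. In FOS+ nuclei Kcnd2 had 127, 55.5 and 72.4 CPM, with 19 of 33 nuclei counted.

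**Figure D4:**
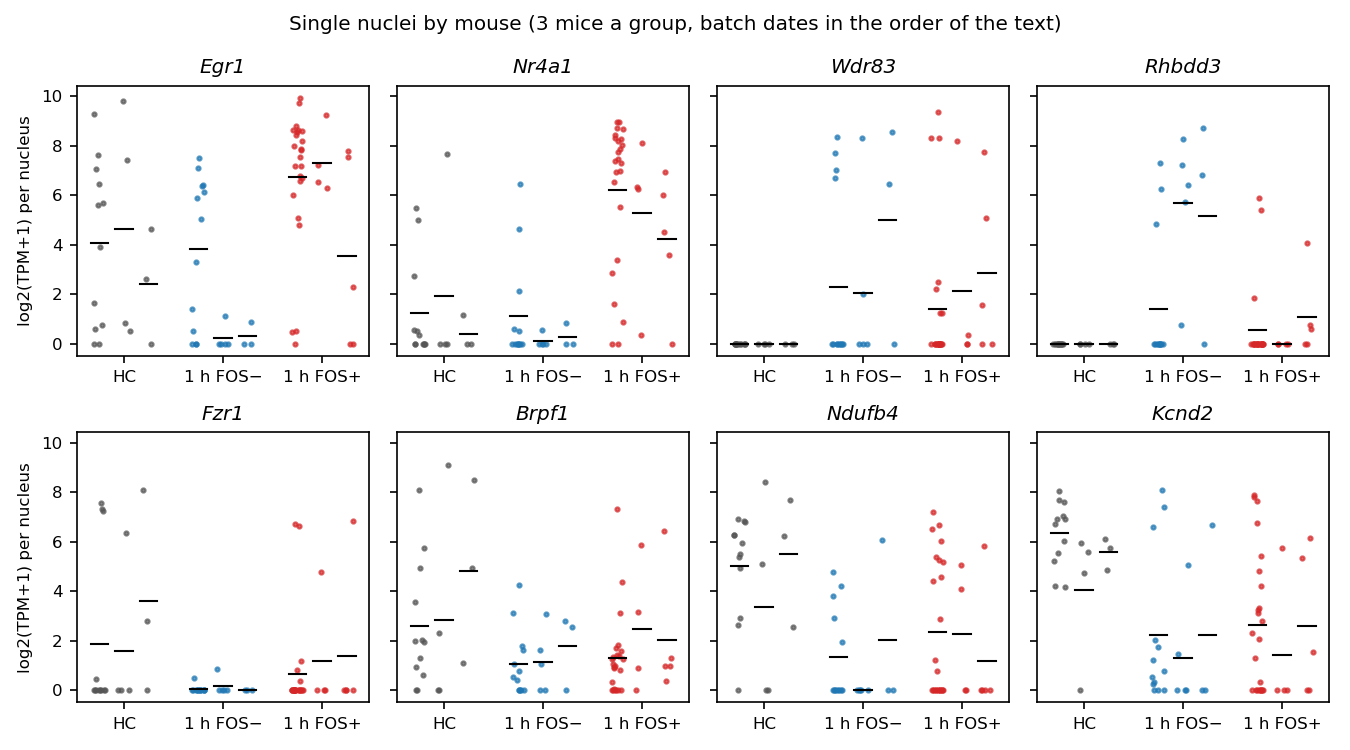
Log2(TPM+1) of single CA1 nuclei (points, y axis) by group and mouse (x axis; the 3 mice of a group are in the order of the batch dates), with the mean of each mouse as a bar. Wdr83 and Rhbdd3 are at 0 in all 19 HC nuclei; Ndufb4 and Kcnd2 lie above 1 in 16 and 18 of the HC nuclei but in 6 and 9 of the 21 nuclei of 1 h FOS−; Egr1 and Nr4a1 are spread from 0 upward in both FOS− groups.

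The other respiratory genes were examined beside Ndufb4. Of 93 genes of the respiratory chain and ATP synthase 85 were tested, 27 above and 58 below 0, with a median log2 fold change of −0.38 beside −0.0008 over all genes tested. edgeR called 0 of them, and 1 had an unadjusted p under 0.05. The 2 of 85 whose mice separated, both lower at 1 h, beside 1.76% of all genes tested, were Ndufb4 and Ndufaf3, an assembly factor of complex I (103, 198 and 82.7 CPM in HC, 37.3, 19.8 and 0.529 at 1 h). Within the batch dates the median was −0.998, −0.19 and 0.56, so its direction turned with the date. Of the 81 cytosolic ribosomal protein genes tested 31 were above and 50 below 0, with a median of −0.22 and date medians of −0.96, −0.24 and 0.76. These nuclear libraries hold short, abundant messages such as Rpl7 (64.7, 126 and 87.4 CPM in HC, 51.3, 60.4 and 41.8 at 1 h) at modest levels. The mitochondrial import genes, 23 tested, had a median of 0.44, and the 36 proteasome genes −0.15. No gene encoded by the mitochondrial genome was in the table.

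Ion channels and receptors set how these neurons respond to input. Of 92 potassium channel genes 46 were tested, 19 above and 27 below 0, with a median of −0.35. In 2 of them the 1 h mice lay above and in 4 below the HC mice, beside 2.12% and 1.76% of all genes tested. Kcnj9, the GIRK3 subunit of G protein-gated channels, had 99.0, 331 and 77.2 CPM in HC and 11.7, 0 and 0.529 CPM at 1 h, and was counted in 13 of 19 against 2 of 21 nuclei. Its partner subunit Kcnj6 (GIRK2) went the other way, with 75.2, 14.9 and 0.422 CPM in HC and 105, 75.8 and 327 CPM at 1 h, counted in 10 and 17 nuclei. Neither was called (edgeR adjusted p = 0.94 for Kcnj9 and 1 for Kcnj6, DESeq2 adjusted p = 0.11 and 0.58), and each shares exon bases with a further transcript. Kcnk1, the leak channel TWIK-1, had 6.28, 91.6 and 23.2 CPM in HC and 1.39, 0.144 and 1.06 CPM at 1 h and was called by DESeq2 (adjusted p = 0.0018) and not by edgeR (adjusted p = 0.94).

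Grm3, the metabotropic glutamate receptor 3, which lowers cyclic AMP, had 17.3, 204 and 190 CPM in HC and no count at 1 h. It was counted in 9 of 19 HC nuclei, in every HC mouse, and in 0 of 21 nuclei at 1 h, and the pooled level was at least 521-fold lower. A single nucleus held 59.8%, 60.7% and 100.0% of the Grm3 counts in HC mice 3, 4 and 8. DESeq2 called it (adjusted p = 4.3e-05) and edgeR did not (adjusted p = 0.94). In FOS+ nuclei it had 4.61, 0 and 0.162 CPM, so it was low in both groups of NE mice. The other glutamate receptor genes did not follow, with 12 of 23 above and 11 below 0 and a median of 0.05. The 13 GABA-A receptor subunits tested had a median of −0.52, 3 above and 10 below 0, and 0 had an unadjusted p under 0.05.

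Of 31 synaptic vesicle and release genes tested 21 were above and 10 below 0 (median 0.20), with date medians of −0.11, 0.32 and 0.59 and 1 gene at an unadjusted p under 0.05. Sv2b, a vesicle glycoprotein, had 256, 98.5 and 171 CPM in HC and 351, 441 and 400 CPM at 1 h, counted in all 40 nuclei, with a log2 fold change of 1.18 (SE 0.50, edgeR adjusted p = 0.94). Ppp1r9a (neurabin), an actin-binding scaffold of spines, lay lower in all 3 mice of the 1 h group, at 83.3, 76.2 and 77.3 CPM against 306, 272 and 328. The replicates of Ppp1r9a were close in CPM in both groups, but less so in mean log2(TPM+1). On that scale they stood at 5.01, 7.44 and 6.30 in HC and 2.27, 2.86 and 3.41 at 1 h. The log2 fold change of −1.93 had a standard error of 1.06 in the edgeR fit (adjusted p = 0.97). That fit shares the spread among genes and includes the FOS+ sums (195, 4.63 and 290 CPM). The 28 postsynaptic genes as a list had a median of −0.05, the 26 calcium and sodium channels 0.03 and the 43 splicing factors −0.12.

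The study's own lists of genes induced in dentate granule nuclei were read in these CA1 nuclei. They were chosen on nuclei of this series, though not on these. Of 240 early genes tested the median log2 fold change was −0.05 (115 above and 125 below 0), of 103 sustained genes −0.03, and of 121 late genes 0.00. edgeR called 0 in each. Mice separated in 2 early genes higher and 6 lower, in 4 sustained genes higher and 0 lower, and in 0 late genes higher and 7 lower, beside 2.12% and 1.76% of all genes tested. Ntrk2, the receptor of BDNF, was 1 of the 4 sustained genes, with 137, 153 and 152 CPM in HC and 277, 390 and 255 CPM at 1 h, and 842, 545 and 317 CPM in FOS+ nuclei. Its log2 fold change was 1.06 (SE 0.44, edgeR adjusted p = 0.94). Sec24a, a coat protein of vesicles leaving the endoplasmic reticulum, had 134, 80.9 and 175 CPM in HC and 234, 293 and 328 CPM at 1 h, with 303, 333 and 401 CPM in FOS+ nuclei. Ntrk2 was counted in 19 of 19 HC and 20 of 21 nuclei at 1 h, and Sec24a in all of both groups. A single nucleus still held 71.4% and 89.7% of the Ntrk2 counts in HC mice 4 and 8, and 72.2% of those of Sec24a in HC mouse 8 and 58.1% in 1 h mouse 10. Among the late genes Gtf2b, the basal transcription factor TFIIB, had 30.2, 11.1 and 13.1 CPM in HC and 0.723, 0.144 and 0 CPM at 1 h.

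**Figure D5:**
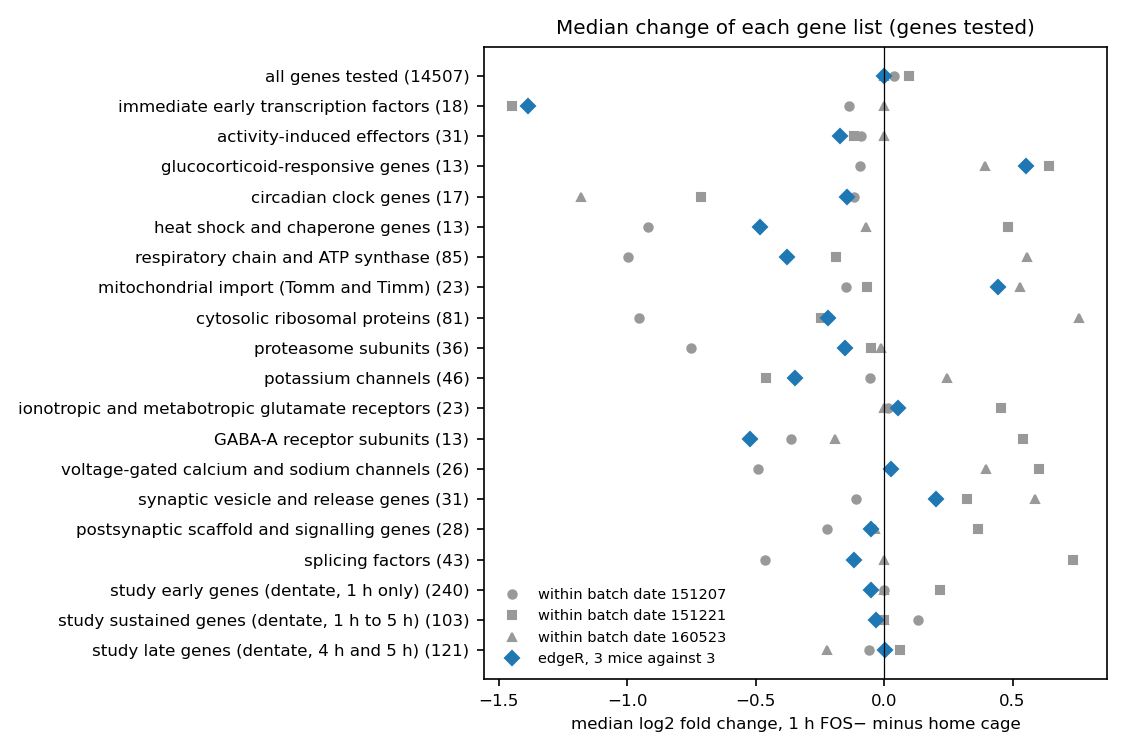
Median log2 fold change (x axis, 1 h FOS− minus HC) of each gene list (y axis, number of genes tested in brackets), from edgeR over 3 mice against 3 (blue) and within each batch date (grey). Of the 19 lists with 10 genes or more, 13 have a pooled median below that of all genes, and in most lists the dates fall on both sides of 0, as for the respiratory chain (−0.998, −0.19 and 0.56).

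The labelled cell type was checked against its markers. Slc17a7, the vesicular glutamate transporter of these neurons, was counted in all 40 nuclei, at 661, 475 and 173 CPM in HC and 613, 719 and 208 CPM at 1 h. The mean log2(TPM+1) of 7 CA1 markers was 4.71, 2.11 and 3.79 in HC and 3.35, 1.58 and 2.94 at 1 h, lower at 1 h on each date, with 0 of the 7 at an unadjusted p under 0.05 in edgeR. Both mice of the second date had the lowest marker level of their group, and there Man1a and Fibcd1 stood at 0.144 and 1.01 CPM in 1 h mouse 4. In the same mouse the mean log2(TPM+1) of 4 CA3 markers was 1.60, against 0.17 to 0.36 in HC and 0.49 and 0.21 in 1 h mice 2 and 10. Grik4, a kainate receptor subunit on the CA3 list, had 3.53, 6.13 and 4.22 CPM in HC and 32.3, 170.7 and 3.18 CPM at 1 h (log2 fold change 3.89, SE 1.46, edgeR adjusted p = 0.94). Amigo2, an adhesion protein of CA2, had 0.0655, 0 and 0 CPM in HC and 37.5, 107 and 0 CPM at 1 h, from 2 nuclei, and DESeq2 called it (adjusted p = 0.0185) while edgeR did not (adjusted p = 0.94). The CA2 list as a whole ran from 0.43 to 0.99 in HC and 0.47 to 0.99 at 1 h, and the subiculum list from 1.46 to 2.32 and 1.51 to 2.23. The part of the CA3 and CA2 messages in the other gene differences was not tested. Vip was at 0 in all nuclei and Gad1, Gad2 and Slc32a1 at no more than 1.77 CPM in any mouse, while Sst, a further interneuron marker, had 1.06 to 38.3 CPM. C1qa and Tmem119 of microglia, Cldn5 of endothelium and Cspg4 of oligodendrocyte precursors were at 0 throughout. The mean log2(TPM+1) of the microglial list ran from 0.35 to 0.86 in HC and 0.27 to 0.59 at 1 h, and that of the endothelial list from 0.18 to 0.32 and 0.32 to 0.54. For astrocytes the range was 0.19 to 0.57 in HC and 0.56 to 0.87 at 1 h, with Aldh1l1 at 0. Slc1a3, the glutamate transporter GLAST, had 1.18, 0.383 and 2.11 CPM in HC and 30.1, 20.9 and 3.70 CPM at 1 h (DESeq2 adjusted p = 0.0272, edgeR adjusted p = 0.94). Gfap, the astrocyte filament protein, had 0, 325 and 0 CPM in HC and 9.28, 0 and 156.7 CPM at 1 h, and Gja1 had 0, 0 and 17.7 CPM in HC and 6.51, 0.144 and 0 CPM at 1 h, so these 3 markers took no common direction.

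Markers of oligodendrocytes did not stay near 0. A single nucleus of HC mouse 4 held 5 of 5 oligodendrocyte markers above a log2(TPM+1) of 5, and it gave 1223949 of the 2637554 counts of that mouse. Mbp, a myelin protein, had 85.6, 1274 and 21.5 CPM in HC and 79.1, 2.31 and 0.529 CPM at 1 h. HC mouse 4 stood far above the others and the groups overlapped (edgeR adjusted p = 1). The mean log2(TPM+1) of the list was 1.11, 3.80 and 1.80 in HC and 1.67, 1.19 and 0.93 at 1 h. Without this nucleus edgeR called 0 genes (722 at an unadjusted p under 0.05) and DESeq2 236 (140 higher and 96 lower). The part of these markers in the other gene differences was not tested.

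Haemoglobin messages took no common direction, and edgeR called none of the 3 genes tested. Hba-a2 was counted in 2 of 19 HC nuclei and 11 of 21 nuclei at 1 h (1 and 10 after thinning), at 0.0655, 0 and 3.80 CPM in HC and 43.8, 25.1 and 37.6 CPM at 1 h. The log2 fold change was 4.82 (SE 2.84, edgeR adjusted p = 1). Of the other haemoglobin genes Hba-a1 was at most 0.131 CPM in HC and had 28.8, 8.09 and 0 CPM at 1 h, whereas Hbb-bs had 2.16, 47.1 and 0 CPM in HC and 11.3, 0 and 0 CPM at 1 h, and Hbb-bt was counted in 1 HC nucleus alone. The mean log2(TPM+1) of the 4 genes was 0.33, 0.62 and 0.88 in HC and 2.15, 0.93 and 0.67 at 1 h. In FOS+ nuclei Hba-a2 was counted in 8 of 33, all of mouse 2.

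The difference between 1 h and HC was then set against that in other FOS− nuclei of the series, in 1 edgeR fit over 22076 genes. The subiculum sums come from the same mice, in HC from mice 4 and 8 only. Some VIP sums share mice with CA1 too (1 h mouse 2 and HC mouse 4 of the second date), and the fit takes all sums as independent. Against the subiculum 0 genes departed from CA1 (0%, 1380 at an unadjusted p under 0.05). Against VIP interneurons the count was also 0 (0%, 1528), and against dentate granule nuclei, whose 1 h sum is 1 mouse, 0 (0%, 542). DESeq2 called 892, 843 and 343 genes. Without 1 h mouse 10 edgeR called 1 gene against the dentate, Snhg11, a long noncoding RNA singled out once its values were known, whose 1 h to HC difference in CA1 minus that in the dentate was −1.74 ± 0.25 (SE, edgeR adjusted p = 0.0246). The dentate 1 h arm is 1 mouse, which is assumed to vary like the other groups. The dentate HC mice were younger and come from another date, so age, date and exposure cannot be told apart there. With all mice the Snhg11 difference was −1.56 ± 0.27 (SE), and the gene was not called. With the scaling of that fit, Snhg11 in CA1 had 11075, 11752 and 14741 CPM in HC and 14481, 13569 and 20425 CPM at 1 h, and in the dentate 574 and 530 CPM in HC and 2151 CPM in the 1 h mouse.

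The share of FOS− nuclei that the Arc rule removed differed between the groups by less than the spread of the mice. Of the CA1 FOS− nuclei with at least 4000 genes, Arc exceeded 2.5 in 15 of 27, 0 of 4 and 1 of 4 in HC mice 3, 4 and 8 and in 8 of 21, 0 of 5 and 3 of 6 in 1 h mice 2, 4 and 10. The mean share was 26.9% ± 27.8 in HC and 29.4% ± 26.1 at 1 h (SD, n = 3 mice each, two-sided exact permutation p = 1.0, smallest possible 0.1). At a threshold of 1 the mean shares were 36.4% and 31.0%, and at 5 they were 13.6% and 20.6%, so the order of the groups turned with the threshold.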

How the data were processed

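The authors sequenced each nucleus as a single-end 50-base Smart-seq2 library, trimmed the reads with Solexa-QA++, aligned them with Bowtie and quantified genes with RSEM on mm10 with an Ensembl annotation (release not given in the sources used here). They deposited expected counts per gene (42802 genes) and log2(TPM+1) values (40221 genes), both used here. All deposited expected counts used were whole numbers. The second versions of the tables were not used.

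The members and lists were chosen with earlier results of these data known. Counts were summed per mouse, since nuclei are not replicates. The main test was edgeR's quasi-likelihood test (TMM scaling, filterByExpr, Benjamini-Hochberg adjusted p under 0.05) over the sums of HC FOS−, 1 h FOS− and 1 h FOS+ nuclei, which share 1 estimate of spread (common dispersion 1.74). The p-values measure the spread between these sums, which holds the sampling of nuclei as well as the mice. At 1 h the FOS− and FOS+ sums come from the same mice, and the fit takes them as independent. Counts are of reads without molecular identifiers, so intervals and floors (3 counts over a group, 0.148 CPM in HC and 0.118 at 1 h) cover counting error only. Strand was not given, and overlapping genes may exchange counts. The scripts were tested on simulated counts whose spread was smaller than that of the data. How many changes the test would find at the spread of the data was not shown.

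Genes named were the 12 activity genes, Ndufb4 and Kcnd2, the 10 higher and 10 lower with the smallest unadjusted p whose mice did not overlap on both scales and whose dates all went one way (unnamed gene models left out), the first 5 each way by DESeq2 under the same conditions, up to 2 separated genes per list and direction, and cell type markers. Alternatives were DESeq2, limma, the replicate block, other filters, scalings and selections of nuclei, and each mouse left out. Batch date pairs an HC with a 1 h mouse: deviations from group means correlated at 0.067, 0.037 and 0.074 on the same date and −0.069 to 0.014 on different dates. Nuclei were thinned to 300000 counts where stated. Versions were R 4.3.3, edgeR 4.0.16, limma 3.58.1, DESeq2 1.42.0, Python 3.11.15, numpy 2.4.6, pandas 2.3.3, scipy 1.17.1 and matplotlib 3.10.9.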

Additional observations from a re-analysis of the deposited data

Results flagged for a closer look

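The nuclei that the Arc rule left out of the comparison held activity gene messages. In the 11 FOS− nuclei with Arc above 2.5 at 1 h, from 2 mice, the mean log2(TPM+1) of Homer1 was 5.41 over the mice, and in the 16 such HC nuclei, also from 2 mice, it was 2.87. Per mouse, Homer1 stood at 5.36 and 5.46 at 1 h and at 4.96 and 0.77 in HC. Nr4a1 had a mean of 4.88 at 1 h (4.34 and 5.42) and 2.10 in HC (4.20 and 0). The lower HC mouse in both genes gave 1 nucleus, and the difference between the groups was not tested. These values were singled out because they lie in nuclei outside the comparison and above the control level.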

How the results depend on the processing

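edgeR called 0 genes between the groups under each alternative run, including the replicate block by batch date (0 called, 523 at an unadjusted p under 0.05), another scaling, no filter, the fit of the FOS− groups alone, other rules for genes or Arc, at most 3 nuclei per mouse, equal totals and each mouse left out. DESeq2 called 258, 236 without the nucleus high in oligodendrocyte markers and 443 with the replicate block. Leaving out each mouse in turn gave DESeq2 532, 279 and 322 calls (1 h mice 2, 4 and 10) and 628, 295 and 384 calls (HC mice 3, 4 and 8). Between cell types DESeq2 called 892 (subiculum), 843 (VIP) and 343 (dentate) genes, and edgeR 0 to 1 against the dentate with each mouse left out. Of the 19 lists, 13 lay below the median of all genes, and 6 did within the last batch date. The 1 h to HC difference in the share of FOS- nuclei with Arc above 2.5 (2.51 percentage points, 1 h minus HC) turned to −5.47 at a threshold of 1 and ran from −10.9 to 17.2 with each mouse left out, reversing without 1 h mouse 2 (−1.85), 1 h mouse 10 (−7.80) or HC mouse 4 (−10.9). The causes were not tested. Of the 20 leading genes, 2 (Vcpkmt and Abhd14b) had the opposite sign in 1 alternative. Few nuclei per mouse, 3 to 5 in 4 of the 6, limit each of these results.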

Other observations

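In the same nuclei left out for Arc, the means of Egr1, Junb and Fos over 2 mice each were 6.62, 5.22 and 4.31 in HC and 3.75, 1.14 and 0.97 at 1 h on the log2(TPM+1) scale, but single mice carried much of the gaps. Egr1 stood at 6.36 and 6.88 in HC mice 3 and 8 and at 6.08 and 1.43 in 1 h mice 2 and 10. Junb stood at 5.04 and 5.39 in HC and 1.502 and 0.784 at 1 h. Fos stood at 2.14 and 6.48 in HC and 0.13 and 1.81 at 1 h. HC mouse 8 gave 1 nucleus and HC mouse 3 gave 15, while the 1 h mice gave 8 and 3. These nuclei were negative for FOS protein in the sort, and no test was run on them.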
